A study of Mus musculus with 3 samples.

Results

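The genes described here encode the complex that marks β-catenin for destruction, together with β-catenin itself. They are Apc, Axin1, Amer1, Gsk3a, Gsk3b, Csnk1a1, Btrc and Ctnnb1, 8 of the 32285 genes counted in these single-cell RNA-seq libraries of mouse intestinal organoids. The genes were chosen by name and not by a limit on their level, though with earlier results of these data known. All 8 reached the minimum used for comparisons, a mean of 5 CPM in the pair of libraries compared. CPM is the count of a gene scaled to a total of 1000000 UMIs, and a UMI tags 1 captured RNA molecule. Their levels were read in 2 sets of barcodes, a barcode being the tag of 1 droplet: deep barcodes, found in 1 library only, and barcodes that all 3 libraries shared.

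In a cell without a Wnt signal, the scaffolds Apc, Axin1 and Amer1 bring β-catenin to the kinases CK1α, the product of Csnk1a1, and GSK3α and GSK3β. The kinases phosphorylate β-catenin in turn, the β-TrCP subunit encoded by Btrc recognises the phosphorylated form, and a ubiquitin ligase tags it for the proteasome. Wnt ligands stop this sequence at the membrane, and in intestinal crypts the β-catenin that accumulates works with Tcf/Lef1 factors to keep stem and progenitor cells dividing. Loss of Apc has the same outcome without a ligand, and most of this control acts on protein, which RNA counts do not show.

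The study asked what the Wnt effector Lef1 does in intestinal tumours that start from loss of Apc, and the organoids, small hollow bodies of cultured intestinal epithelium, came from its mice. All mice were labelled C57BL/6 (the Lef1 fl/fl allele came from a mixed background with 129SV and was backcrossed), were 7 to 8 weeks old at treatment and received 2 doses of 2 mg tamoxifen, the WT mice included. The label of the WT library gives the genotype only as WT, and the study used WT for mice with the Lgr5-driven Cre alone in another experiment, so whether these mice carried it is not given for this library. They were analysed 21 days after tamoxifen. LApc mice carried Lgr5-CreERT2 and Apc fl/fl and were analysed at 29 days, and LApcL mice carried Lef1 fl/fl in addition and were analysed at 21 days. The Cre is driven from Lgr5, a gene of intestinal stem cells, so recombination begins in those cells and their progeny and other cells keep both alleles. Organoids were taken at passage 3, day 6 of culture. There was 1 library of each genotype and no replicate, so no test between genotypes was possible, and genotype, days after tamoxifen and library cannot be told apart between LApc and the others. Intervals are exact at the 95% level and cover counting error only.

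Each library held 10706 to 12068 barcodes. A deep barcode had at least 10000 UMIs and at most 20% of them from the 13 mitochondrial genes, and there were 1208 in WT, 2161 in LApc and 1931 in LApcL, with medians of 38073.5, 34377 and 32584 UMIs. Median mitochondrial shares in them were 10.5%, 5.64% and 6.39%. The labels give the tissue as intestinal organoids, and in deep barcodes the 5 epithelial markers (Epcam, Krt8, Krt18, Krt19 and Cldn7) summed to 4197, 7018 and 7663 CPM while the 5 endothelial markers summed to 4.77, 21.5 and 12.6 CPM. The same 3195 barcodes occurred in all 3 libraries, of which 3145 to 3151 a library passed the mitochondrial limit. Those shared barcodes were shallow, with medians of 1498 to 2200 UMIs, and they went against the label: their endothelial markers summed to 3827 to 3833 CPM and their epithelial markers to 11.1, 55.2 and 35.7 CPM in WT, LApc and LApcL. Levels in them are given separately throughout.

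Apc, the gene targeted in LApc and LApcL, came first. In deep barcodes it was at 19.96 CPM in WT (interval 18.7 to 21.2), 88.5 CPM in LApc (86.5 to 90.4) and 95.4 CPM in LApcL (93.3 to 97.6). Apc was thus lowest in the library with both alleles intact, and none of the 3 intervals overlapped. The counts are per gene and not per exon, and the place of the loxP sites is not given in the sources used here, so the level of Apc does not check the deletion. The ratio of LApc to WT was 4.43-fold (4.15 to 4.74; log2 2.15), that of LApcL to LApc was 1.08-fold (1.05 to 1.11; log2 0.11), and that of LApcL to WT was 4.78-fold (4.47 to 5.11; log2 2.26). In shared barcodes Apc was at 208, 196 and 203 CPM in WT, LApc and LApcL, and all 3 intervals overlapped there. Over all barcodes within the mitochondrial limit, shared ones included, Apc was at 46.7, 93.8 and 101 CPM, and the log2 ratio of LApc to WT was 1.01 in place of 2.15.

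**Figure D1:**
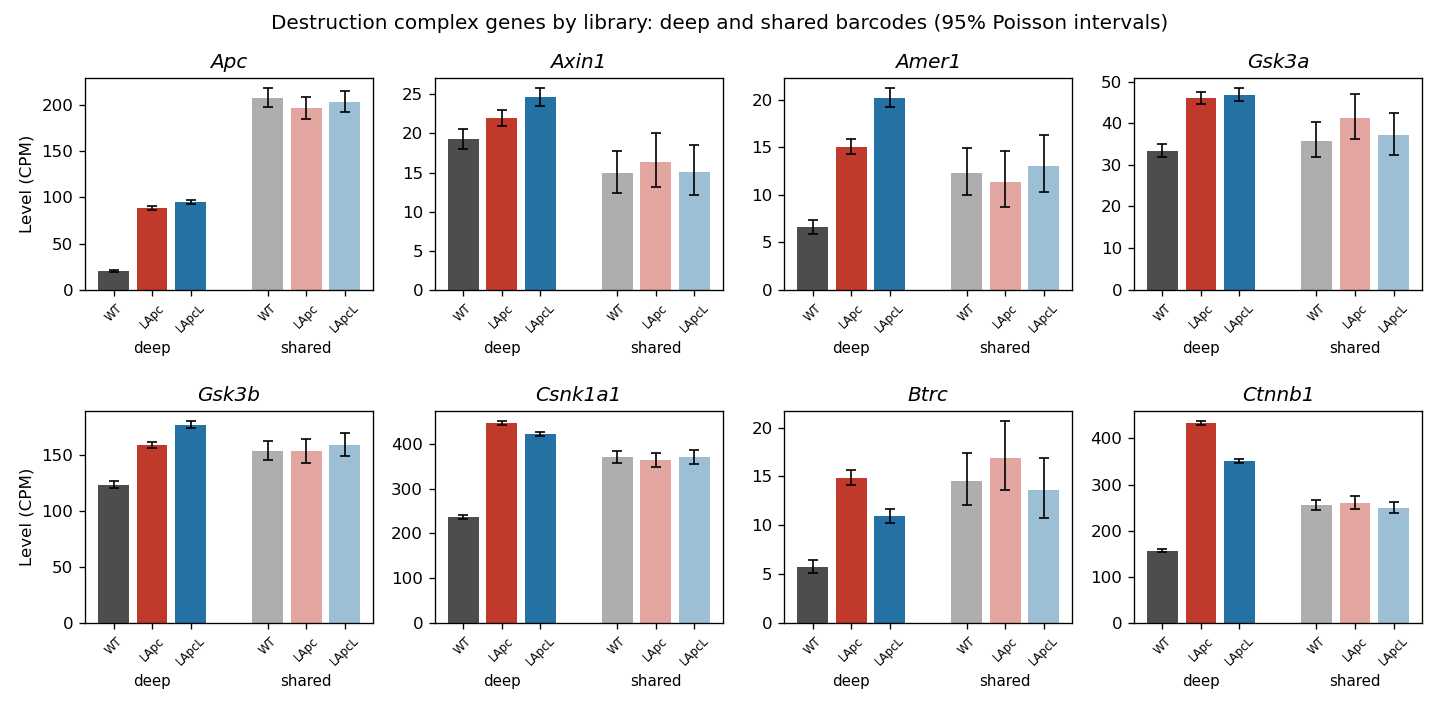
Level of each gene in CPM (y axes, linear and starting at 0, with a scale of their own per gene) in WT, LApc and LApcL, in deep barcodes on the left and shared barcodes on the right of each panel; bars are summed UMIs per library and whiskers 95% Poisson intervals. In deep barcodes the WT bar is the lowest for all 8 genes, while in shared barcodes the whiskers of the 3 libraries overlap for all 8.

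Axin1, the scaffold on which the kinases and β-catenin meet and a limiting component of the complex, was nearly level. It was at 19.2 CPM in WT, 22.0 CPM in LApc and 24.6 CPM in LApcL in deep barcodes, an order in which neighbouring intervals did not overlap although the ratio of LApc to WT was only 1.14-fold (1.06 to 1.23). Amer1, a membrane-associated scaffold on the X chromosome that binds Apc, was at 6.63, 15.1 and 20.2 CPM in the same order of libraries. Amer1 was 2.28-fold higher in LApc than in WT (2.02 to 2.58) and 1.34-fold higher in LApcL than in LApc (1.24 to 1.44), the largest difference of the 8 genes upward between those libraries. In shared barcodes Axin1 was at 14.9, 16.3 and 15.1 CPM and Amer1 at 12.3, 11.4 and 13.1 CPM, on 63 to 121 UMIs a library, and no library stood apart.

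The kinases differed among themselves. Csnk1a1, which places the first phosphate on β-catenin, was at 236 CPM in WT, 446 CPM in LApc and 423 CPM in LApcL in deep barcodes, a ratio of LApc to WT of 1.89-fold (1.85 to 1.93). Gsk3b, which adds the phosphates that follow, was at 123, 158 and 177 CPM, and its close relative Gsk3a was at 33.4, 46.0 and 46.8 CPM. Both GSK3 genes were thus under 1.5-fold above WT in either mutant library, with ratios of LApc to WT of 1.29-fold (1.25 to 1.33) for Gsk3b and 1.38-fold (1.30 to 1.46) for Gsk3a. LApcL and LApc intervals overlapped for Gsk3a alone among the 8 genes, with a log2 ratio of 0.03 (-0.04 to 0.09). In shared barcodes the kinases were at 364 to 371 CPM (Csnk1a1), 153 to 159 CPM (Gsk3b) and 35.8 to 41.3 CPM (Gsk3a).

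Btrc, the substrate-binding subunit of the ubiquitin ligase, was scarce, at 5.77 CPM in WT, 14.9 CPM in LApc and 11.0 CPM in LApcL in deep barcodes, on 282, 1350 and 882 UMIs. It was 2.58-fold higher in LApc than in WT (2.26 to 2.94) and lower in LApcL than in LApc, by 0.44 on the log2 scale (interval -0.56 to -0.32). Ctnnb1, which encodes β-catenin itself, was at 157 CPM in WT, 433 CPM in LApc and 352 CPM in LApcL. Its ratio of LApc to WT was 2.76-fold (2.69 to 2.83), and in LApcL it was lower than in LApc by 0.30 on the log2 scale (interval -0.32 to -0.28). Btrc, Ctnnb1 and Csnk1a1 thus shared an order, WT lowest and LApc highest, although Csnk1a1 in LApcL was below LApc by only 0.08 on the log2 scale (interval -0.10 to -0.06), whereas Apc, Axin1, Amer1 and Gsk3b were highest in LApcL. In shared barcodes Ctnnb1 was at 255, 261 and 249.8 CPM and Btrc at 14.5, 16.8 and 13.6 CPM, with overlapping intervals.

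The differences between libraries were then read against all genes. Past 1.5-fold higher in LApc than in WT were 5 of the 8 genes (Apc, Ctnnb1, Btrc, Amer1 and Csnk1a1) and 0 were lower, where 45.7% of all 10081 genes compared were higher and 14.6% lower. The median log2 ratio was 1.05 over the 8 genes and 0.50 over all genes, so the zero point of these ratios lay 0.50 below the median gene. Relative to that median, Axin1 (-0.31), Gsk3b (-0.14) and Gsk3a (-0.04) were below it and Apc (1.65) was farthest above it, at the 92.1 percentile of genes compared, with Ctnnb1 at 86.2 and Btrc at 84.3. With libraries scaled by the median of ratios, which puts the median gene near 0, Axin1, Gsk3b and Gsk3a changed sign, 4 of the 8 genes stayed past 1.5-fold higher (all but Csnk1a1), and the background became 22.0% higher and 25.8% lower. LApcL against WT also had the same 5 genes higher, against 47.3% of 9996 genes, with medians of 0.88 over the 8 genes and 0.53 over all genes, and 3 of them (Apc, Amer1 and Ctnnb1) under the median-of-ratios scale, where 23.3% of all genes were higher and 27.4% lower. LApcL against LApc had 0 of the 8 genes past 1.5-fold, against 6.22% of 10072 genes higher and 6.56% lower, with medians of 0.07 and 0.05. Markers of secretory cells summed to 914 CPM in LApc and 2640 CPM in LApcL deep barcodes. The part of such differences in cell make-up in these ratios was not tested. These 3 comparisons share libraries and are not independent.

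**Figure D2:**
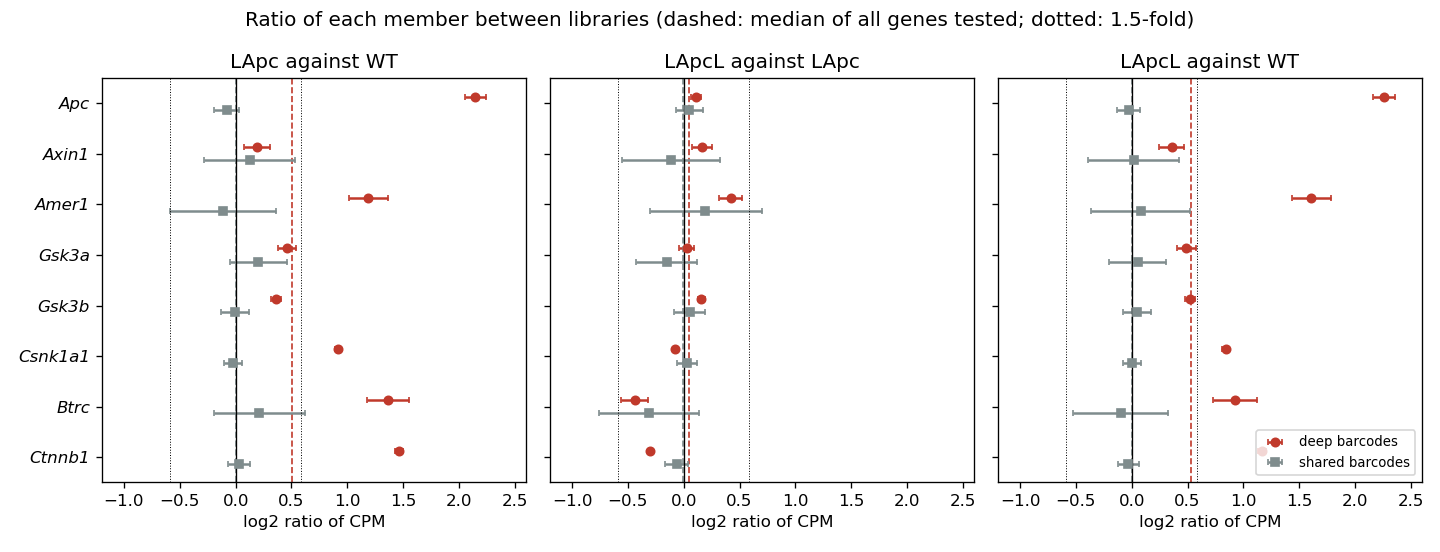
Log2 ratio of CPM (x axes) for each gene (y axis) in the 3 comparisons of libraries; circles are deep barcodes, squares shared barcodes, whiskers 95% intervals, dashed lines the median of all genes compared and dotted lines 1.5-fold. In deep barcodes 5 genes lie past the dotted line in both comparisons with WT and 0 in LApcL against LApc, and in shared barcodes the whiskers of all 8 genes include 0 in each comparison.

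In shared barcodes 0 of the 8 genes passed 1.5-fold in any comparison, against 0.729% of genes either way for LApc and WT, 0.94% for LApcL and LApc and 0.519% for LApcL and WT. The log2 ratios of the 8 genes ran from -0.31 to 0.21, and the interval of each included 0 in each comparison. For the scarce genes these intervals were wide: that of Amer1 in LApc against WT ran from -0.59 to 0.36, so a 1.5-fold difference lay at its edge, and that of Btrc in LApcL against LApc from -0.76 to 0.13.

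Many of the deep WT barcodes were high in enterocyte markers. The 6 enterocyte markers used (Fabp1, Fabp2, Alpi, Sis, Apoa1 and Apoa4) summed to 12081 CPM in WT against 2.54 (LApc) and 1.44 (LApcL) CPM, and 521 of 1208 WT barcodes (43.1%) held at least 50 UMIs of them among 10000, with 266 between 0.5 and 2 times that limit, against 0 in LApc and LApcL. The WT barcodes under the limit still held the markers at 1530 CPM. Of the 8 genes, 6 were lower in the WT barcodes above the limit than in the remaining 687, with intervals that left out 0, where 54% of all genes were. Apc was at 15.3 against 23.8 CPM, Csnk1a1 at 202 against 264 CPM, Amer1 at 4.79 against 8.15 CPM and Axin1 at 15.2 against 22.6 CPM. The differences of Ctnnb1 (146 against 165 CPM) and Gsk3b (112 against 133 CPM) were smaller. For Gsk3a (34.2 against 32.7 CPM) and Btrc (5.33 against 6.13 CPM) the intervals of the ratio included 0.

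Set against those 687 WT barcodes alone, LApc had log2 ratios of 1.89 for Apc, 1.39 for Ctnnb1, 1.28 for Btrc, 0.89 for Amer1 and 0.75 for Csnk1a1. The same 5 of the 8 genes were thus past 1.5-fold higher, where 36.4% of all genes were, and the Axin1 ratio became -0.04. LApcL against the same barcodes also had 5 past 1.5-fold higher, where 39.5% of all genes were. A stricter limit of 10 UMIs, chosen after seeing the data, left 314 WT barcodes with the markers at 519 CPM. Against these, LApc had 5 of the 8 genes past 1.5-fold higher, where 30.1% of all genes were, and Amer1 and Csnk1a1 were both at a log2 ratio of 0.65, near that limit, while Axin1 was at -0.23. LApcL had 3 (Apc, Amer1 and Ctnnb1), where 32.4% were. With a mitochondrial limit of 10% for all libraries, 5 of 8 genes were past 1.5-fold higher in LApc than in WT, where 39.8% of all genes were.

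**Figure D3:**
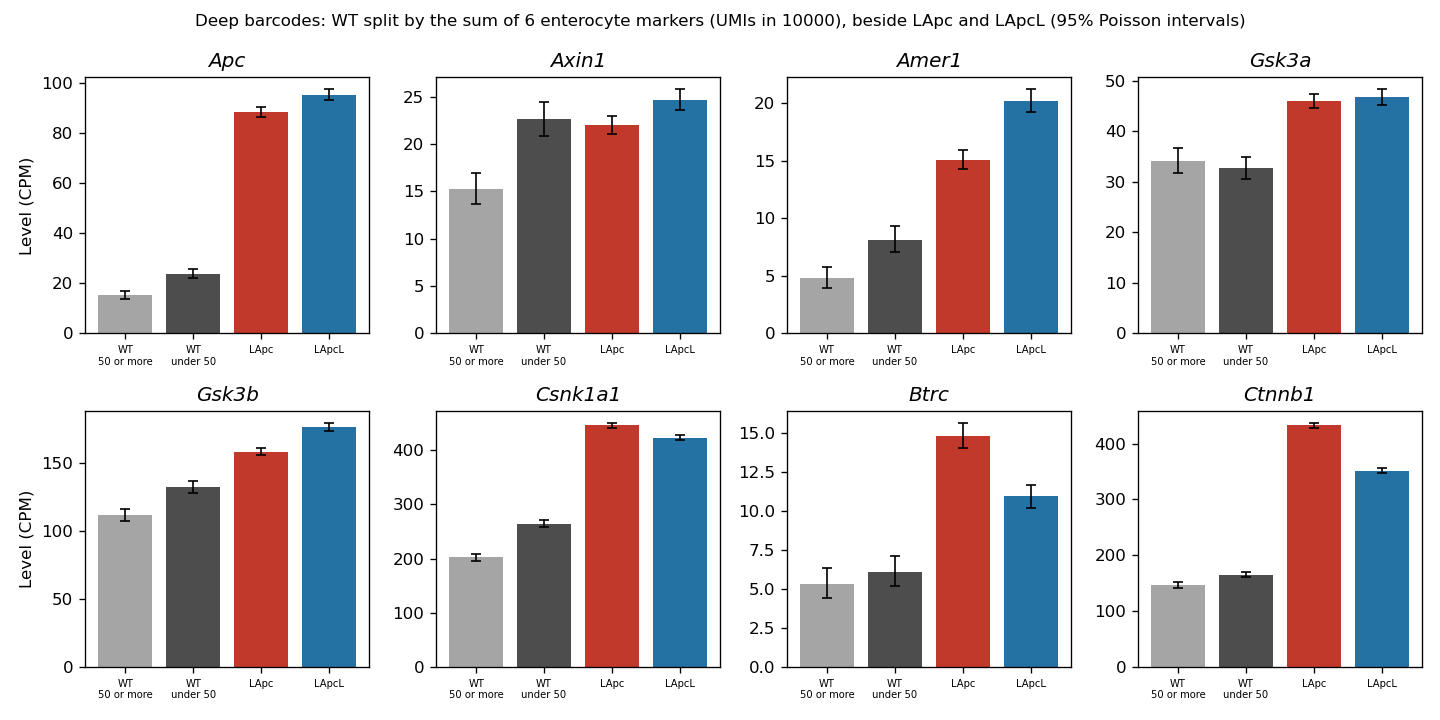
Level of each gene in CPM (y axes, linear and starting at 0) in deep barcodes: WT with at least 50 UMIs of 6 enterocyte markers per 10000 (521 barcodes), WT under 50 (687 barcodes), LApc and LApcL; whiskers are 95% Poisson intervals. The paler WT bar is lower than the darker one except for Gsk3a, and the whiskers of the WT pair overlap for Gsk3a and Btrc.

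Shares of barcodes with a UMI were compared after each deep barcode was thinned to 10000 UMIs, which left out 0 barcodes. Apc had a UMI in 16.6% of WT barcodes (14.6% to 18.9%), 56.7% of LApc barcodes (54.6% to 58.8%) and 60.2% of LApcL barcodes (58.0% to 62.4%). Pecam1, an endothelial gene that epithelial cells should lack, had a UMI in 1.08%, 1.30% and 1.04% at the same depth. Ctnnb1 was found in 76.1%, 95.8% and 95.8%, and Csnk1a1 in 87.1%, 98.2% and 96.8%. Gsk3b was found in 66.1%, 77.5% and 79.4% and Gsk3a in 27.3%, 36.2% and 36.5%, so the GSK3 shares of LApc and LApcL had overlapping intervals. The scarce genes had a UMI in 6.29%, 15.2% and 11.2% (Btrc), 6.21%, 13.1% and 19.1% (Amer1) and 18.4%, 19.8% and 21.6% (Axin1). For Axin1 the 3 intervals overlapped from one library to the next, and the share of each scarce gene was above that of Pecam1 in every library. Unthinned, the Pecam1 shares were 3.39%, 4.44% and 2.59%.

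Among barcodes of 1 library, the spread of counts was read as the variance over the mean, which random sampling of molecules alone puts near 1. For scarce genes, such as Amer1 in WT at a mean of 0.07 UMIs, it stays near 1 even where barcodes differ. Values near 1 therefore do not show even levels. At 10000 UMIs the variance over barcodes was 0.97 to 1.47 times the mean for the 8 genes in the 3 libraries, except for Ctnnb1 in LApc. There it was 2.07 times, at a mean of 4.61 UMIs. Ctnnb1 counts there reached 23 UMIs in a barcode, against 7 in WT and 12 in LApcL. The share of LApc barcodes with a Ctnnb1 UMI, 95.8%, was under the 99.0% that evenly spread molecules would give.

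**Figure D4:**
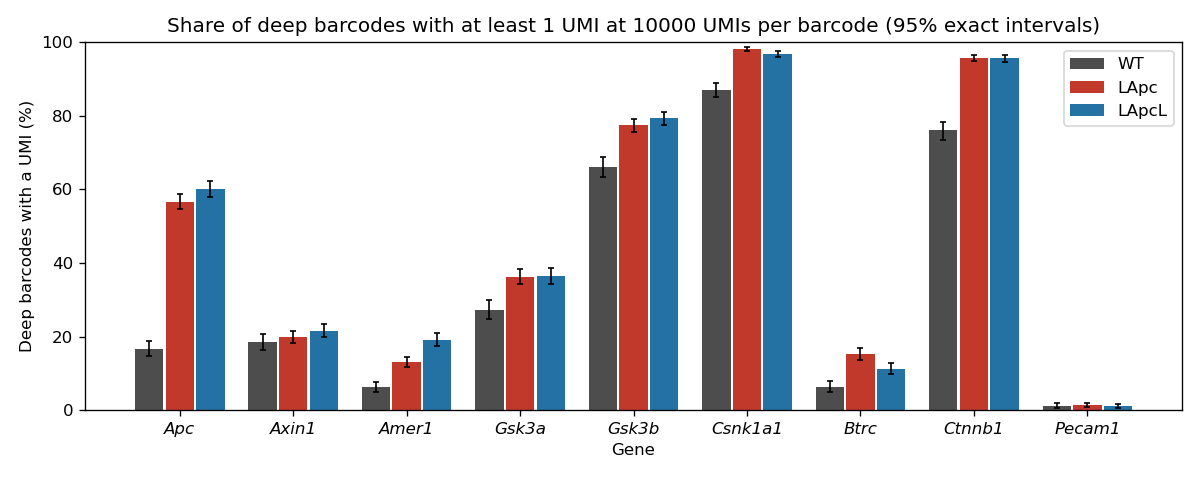
Share of deep barcodes with at least 1 UMI (y axis, percent) for each gene and for Pecam1 (x axis) in WT, LApc and LApcL after thinning to 10000 UMIs per barcode; whiskers are exact 95% intervals. Apc shows the widest gap between WT, at 16.6%, and LApc and LApcL, at 56.7% and 60.2%, and Pecam1 lies at 1.04% to 1.30%.

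Deep barcodes were then split within each library by marker genes. A split is a range of a marker sum and not a cell type. Barcodes with at least 10 UMIs of 8 cell-cycle markers among 10000 numbered 155 in WT, 322 in LApc and 470 in LApcL, with 144, 266 and 422 barcodes between 0.5 and 2 times that limit. Btrc was lower in them in LApc, at 8.73 against 16.4 CPM (log2 -0.91, interval -1.16 to -0.67), and in LApcL, at 9.21 against 11.8 CPM (log2 -0.36, -0.58 to -0.14). With the limit doubled to 20 UMIs the LApcL ratio was -0.25, with an interval that included 0. In WT Btrc was at 5.42 against 5.83 CPM and the interval also included 0. Ctnnb1 was also lower in the cycling barcodes of LApc (351 against 453 CPM) and LApcL (325 against 364 CPM) and was at 169 against 155 CPM in WT. In WT 5 of the 8 genes were higher in cycling barcodes with intervals that left out 0, among them Axin1 (27.2 against 17.9 CPM), where 44.2% of all genes were, and 0 were lower, where 24.3% were. In LApc 1 of the 8 was higher, where 32% of all genes were, and 6 lower, where 41.8% were. In LApcL 1 was higher, where 26.9% were, and 5 lower, where 39.9% were. At 20 UMIs the lower ones became 4 in LApc, against 36.6% of all genes, and 2 in LApcL, against 33.2%. The differences between libraries in these splits were not tested.

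Barcodes with an Lgr5 UMI at that depth, Lgr5 being both the stem cell gene that drives the Cre and a β-catenin target, made up 8.86% of WT, 22.3% of LApc and 52.4% of LApcL deep barcodes. In WT the log2 ratios of all 8 genes between Lgr5-positive and other barcodes lay above 0, from 0.16 to 1.09. The same split was not read over all genes. Amer1 had the highest ratio, at 12.9 CPM in Lgr5-positive and 6.05 CPM in other barcodes (log2 1.09, 0.64 to 1.52). With at least 2 Lgr5 UMIs asked for, which left 32 WT barcodes, the Amer1 ratio was 0.87 with an interval that included 0. In LApc and LApcL, the log2 ratios of all 8 genes between Lgr5-positive and other barcodes lay within -0.23 to 0.27. Apc in particular was at 22.9 against 19.7 CPM in WT, 89.4 against 88.2 CPM in LApc and 99.4 against 91.5 CPM in LApcL. The gap between WT and the mutant libraries in Apc was thus present on both sides of the Lgr5 split.

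A set of 105 LApc barcodes held at least 10 UMIs of Npy, a peptide gene, among 10000, with 57 between 0.5 and 2 times that limit, and WT and LApcL had 0 such barcodes. Btrc was at 29.3 CPM in them and 14.1 CPM in the remaining LApc barcodes (log2 1.05, 0.78 to 1.32), the largest difference of the 8 genes, and Ctnnb1 was at 489 against 429.6 CPM. Their median mitochondrial share was 3.73% against 5.75% in the rest, and its part in the difference was not tested.

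Within a library, deep and shared barcodes carried these genes in different proportions. Apc was lower in deep than in shared barcodes in each library, 10.4-fold in WT, 2.22-fold in LApc and 2.13-fold in LApcL. Past 1.5-fold lower in deep barcodes were 5 of the 8 genes in WT (Apc, Btrc, Amer1, Ctnnb1 and Csnk1a1), where 42.5% of 10556 genes were, and 0 were higher, where 26.8% were. In LApc 1 gene was lower (Apc), where 28.6% of 10874 genes were, and 1 higher (Ctnnb1), where 37.4% were. In LApcL 1 was lower (Apc), where 29.2% of 10799 genes were, and 2 were higher (Axin1 and Amer1), where 38.7% were. Axin1 was the only gene of the 8 above its shared level in all 3 libraries with intervals that left out 0, at log2 0.37, 0.43 and 0.71, a pattern that 26.7% of all genes had. On the median-of-ratios scale the background was 33.6% higher and 34.8% lower in WT, 30.3% and 32.9% in LApc and 31.8% and 33.9% in LApcL, and there 3 of the 8 genes were past 1.5-fold lower and 1 higher in WT, and 0 were higher in LApc and 0 in LApcL. Apc (-3.07, -1.36 and -1.31), Btrc, Axin1, Amer1 and Ctnnb1 kept their signs in all 3 libraries on that scale, whereas Gsk3a, Gsk3b and Csnk1a1 changed sign in at least 1, and Axin1 no longer had intervals without 0 in all 3.

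**Figure D5:**
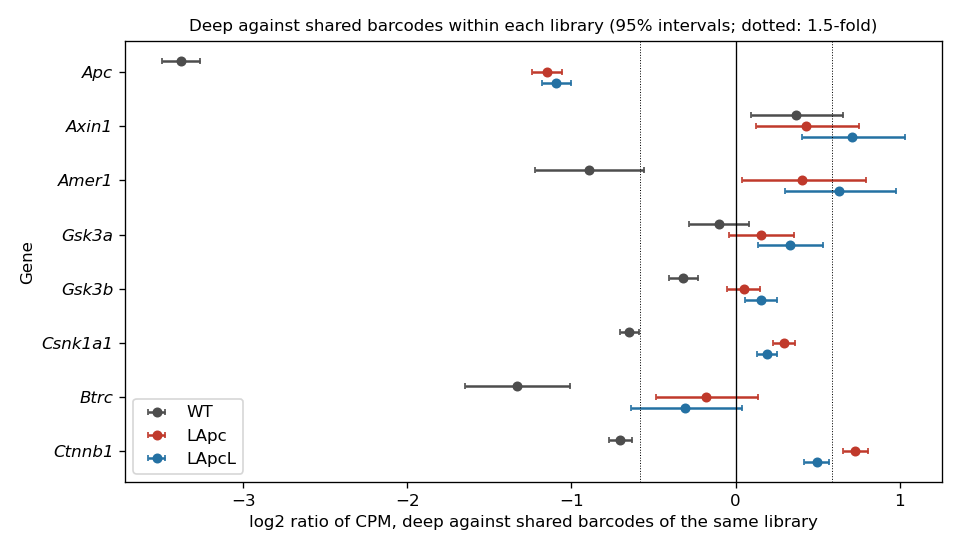
Log2 ratio of CPM in deep against shared barcodes of the same library (x axis) for each gene (y axis) in WT, LApc and LApcL; whiskers are 95% intervals and dotted lines 1.5-fold. Apc lies below 0 in all 3 libraries, at -3.38 in WT. Ctnnb1, Csnk1a1, Amer1, Gsk3b and Gsk3a lie below 0 in WT and above 0 in LApc and LApcL, as does the median of all genes. Of these genes, only Ctnnb1, Csnk1a1 and Amer1 have whiskers that leave out 0 in all 3 libraries. On the median-of-ratios scale, which is not plotted, Gsk3a, Gsk3b and Csnk1a1 change sign in at least 1 library, with Csnk1a1 in LApcL at -0.03.

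At an equal 500 UMIs per barcode, Apc had a UMI in 10.1%, 9.33% and 8.32% of shared barcodes of WT, LApc and LApcL, and in 0.66%, 4.95% and 4.76% of deep barcodes. Ctnnb1 was found in 12.7%, 12.9% and 12.2% of shared barcodes and in 6.87%, 21.7% and 17.1% of deep barcodes. Epcam, which endothelial cells should lack, was found in 0.19%, 0.44% and 0.29% of shared barcodes at that depth, whose medians before thinning were 2200, 1498 and 1622 UMIs. The other 6 genes had shared shares of 0.54% to 17.8%, and for Btrc, Axin1 and Amer1 these rested on 17 to 29 barcodes a library.

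The shared barcodes were split by which of 2 marker sums was higher. Those led by lymphatic markers (Prox1, Lyve1, Mmrn1, Flt4, Pdpn and Ccl21a) numbered 893 to 938 a library and those led by blood vessel markers (Flt1, Emcn, Cd34, Plvap and Sox17) 1696 to 1714, while 499 to 560 a library were led by neither and were left out of the split. Apc was higher in the lymphatic-led barcodes, at 281 against 153 CPM in WT, 275 against 141 CPM in LApc and 276 against 144 CPM in LApcL. The log2 ratios were 0.88 (0.73 to 1.04), 0.97 (0.78 to 1.16) and 0.94 (0.75 to 1.13). Csnk1a1 was lower in them, by 0.28, 0.48 and 0.32 on the log2 scale, and of the remaining genes the interval left out 0 for Ctnnb1 in LApc and LApcL only. Because the 3 libraries share these barcodes, the 3 values are not independent.

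The genes that act beside the complex were read as 8 lists holding 46 genes, 43 of them past the minimum in deep barcodes. In LApc against WT 28 were past 1.5-fold higher and 1 lower, where 45.7% and 14.6% of all genes were. Of the 28, 23 were at or above 5 CPM in WT. The other 5 (Ppp2r1b, Fzd7, Nkd1, Notum and Lef1) passed the minimum only through LApc, so they could not have been called lower. On the median-of-ratios scale 20 of the 43 were higher and 5 lower, where 22.0% and 25.8% of all genes were. Leaving out the β-catenin targets, 20 of 35 were higher, where 45.7% of all genes were, and 1 lower. Ppp2r1b and Fzd7 are among those 20, and the other 18 were at or above 5 CPM in WT. Axin2, the paralog of Axin1 and a β-catenin target, was at 19.6 CPM in WT, 388 CPM in LApc and 299 CPM in LApcL, 4.31 higher on the log2 scale in LApc than in WT (4.21 to 4.40), whereas the ratio of Axin1 was 0.19. Fbxw11, the paralog of Btrc, was at 16.5, 33.4 and 33.8 CPM. Apc2, Amer2 and Amer3 were below the minimum, with Amer2 at 0.25, 2.69 and 0.76 CPM and 0 UMIs of Amer3 in any library, which at a floor of 3 counts is 0.0614, 0.0330 and 0.0373 CPM.

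Each of the 8 β-catenin targets (Axin2, Nkd1, Notum, Sp5, Lgr5, Rnf43, Znrf3 and Lef1) was past 1.5-fold higher in LApc than in WT, where 45.7% of all genes were. Of these, Nkd1, Notum and Lef1 were under 5 CPM in WT and passed the minimum only through the library where they were high, so their call was fixed by it, while the other 5 were at 6.24 to 22.3 CPM in WT. Nkd1 and Notum, which restrain the pathway, had the highest log2 ratios of the 46 genes, 10.48 and 9.60, from 0.37 and 0.39 CPM in WT to 527 and 302 CPM in LApc. In LApcL against LApc, 4 targets were lower, Notum by 2.04, Nkd1 by 1.56, Znrf3 by 0.74 and Lef1 by 0.59 on the log2 scale, and Lgr5 was 1.37 higher, where 6.56% of all genes were lower and 6.22% higher. Lef1, the second targeted gene, was at 0.96, 72.0 and 47.8 CPM, which does not check its deletion for the reason given for Apc. The study states that it established the deletion of Lef1 before it analysed its LApc and LApcL organoids.

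The remaining ligase subunits and kinases were partly higher as well. Skp1, the adaptor between β-TrCP and the cullin, was at 113 CPM in WT, 558 CPM in LApc and 371 CPM in LApcL, Rbx1 was at 183, 306 and 291 CPM, and Cul1 was at 64.1, 92.3 and 92.2 CPM. Skp1 was lower in LApcL than in LApc by 0.59 on the log2 scale, as were Btrc and Ctnnb1 by less. Of the 5 other casein kinase 1 genes, 4 passed 1.5-fold higher in LApc against WT, with Csnk1e at 22.1, 117 and 102 CPM, and Csnk1g3 was at 70.0, 55.7 and 44.7 CPM, the only one of the 5 lower in LApcL than in WT (log2 -0.65). Among 6 genes of PP2A, a phosphatase that opposes the kinases, 4 passed 1.5-fold higher in that comparison. These 4 include the scaffold subunit Ppp2r1b at 4.99, 19.2 and 15.8 CPM. Being under 5 CPM in WT, Ppp2r1b passed the minimum only through LApc and could not have been called lower. These shares of small lists are to be read against the same 45.7% of all genes.

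Of 4 genes of axin turnover, the tankyrases Tnks (23.6, 51.6 and 43.3 CPM) and Tnks2 (59.6, 157 and 147 CPM) passed 1.5-fold higher in LApc against WT, 2 of 4 where 45.7% of all genes did, while Rnf146, which ubiquitinates the modified axin, was at 29.0, 33.6 and 27.5 CPM. On the receptor side Fzd5, a Wnt receptor, had the lowest log2 ratio of the 46 genes in LApc against WT, -2.84 (80.5, 11.2 and 8.36 CPM), and Fzd7 was at 3.82, 11.2 and 16.8 CPM. Of 9 β-catenin partners 4 passed 1.5-fold higher in LApc against WT, a share near the 45.7% of all genes, among them the co-activators Bcl9 (11.3, 35.0 and 37.2 CPM) and Bcl9l (8.51, 29.8 and 37.3 CPM), while E-cadherin Cdh1 was at 148, 192 and 239.7 CPM.

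Start regions are shown for Ctnnb1, Gsk3b and Axin2, to set a gene past 1.5-fold above WT, a gene under that limit and the paralog target side by side. Among the 8 genes, 3 had an entry in the RefSeq promoter table (Gsk3a, Gsk3b and Ctnnb1, build GRCm38.p6), each of 250 bases before to 50 after the start. Capitals mark the letters of a Tcf/Lef core, CTTTGA or its reverse complement TCAAAG, both strands searched, which 16.0% of 32851 such regions held. The regions are chr9:120933150-120933449 (plus strand) for Ctnnb1, the first of 2 listed starts, chr16:38088751-38089050 (plus strand) for Gsk3b and chr11:108920099-108920398 (plus strand) for Axin2.
Ctnnb1: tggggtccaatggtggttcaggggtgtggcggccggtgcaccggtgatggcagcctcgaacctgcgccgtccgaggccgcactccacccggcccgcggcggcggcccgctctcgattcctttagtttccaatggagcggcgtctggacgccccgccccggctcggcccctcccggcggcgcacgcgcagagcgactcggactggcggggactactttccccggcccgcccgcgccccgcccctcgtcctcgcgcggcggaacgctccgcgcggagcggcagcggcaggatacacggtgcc
Gsk3b: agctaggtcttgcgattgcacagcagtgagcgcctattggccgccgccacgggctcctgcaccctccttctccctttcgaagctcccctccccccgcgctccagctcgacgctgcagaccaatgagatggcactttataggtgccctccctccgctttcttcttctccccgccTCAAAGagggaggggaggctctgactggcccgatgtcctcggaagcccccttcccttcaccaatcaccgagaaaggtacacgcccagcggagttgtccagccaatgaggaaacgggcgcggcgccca
Axin2: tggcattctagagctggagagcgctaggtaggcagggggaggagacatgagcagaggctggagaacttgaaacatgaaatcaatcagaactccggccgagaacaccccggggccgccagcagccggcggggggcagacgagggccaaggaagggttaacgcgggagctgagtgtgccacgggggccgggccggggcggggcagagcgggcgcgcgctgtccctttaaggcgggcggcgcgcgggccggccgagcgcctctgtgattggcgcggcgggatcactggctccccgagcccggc
The windows of Ctnnb1 and Axin2 held 0 matches and that of Gsk3b held 1, as did that of Gsk3a. A match is a run of letters and not a measured site, and its absence says only that these letters are not in this window.

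In the annotation of the same build, Ctnnb1 spans chr9:120929216-120960507, Gsk3b chr16:38089001-38246084, Axin1 chr17:26138688-26195811, Btrc chr19:45363734-45530013, Apc chr18:34220924-34322552 and Csnk1a1 chr18:61555274-61590061 on the plus strand, and Amer1 chrX:95420318-95444872 and Gsk3a chr7:25228258-25237851 on the minus strand. Counted genes overlap on the opposite strand at Ctnnb1 (Ulk4 and 4930593C16Rik) and Gsk3a (9130221H12Rik), and whether counting used the strand is not given in the sources used here. Ulk4 was at 2.47, 6.48 and 6.07 CPM in deep barcodes and the other overlapping genes at 1.58 CPM or less, far below the values of Ctnnb1 and Gsk3a.

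The genes whose pattern was most like each of the 8, by distance on log2 CPM over the 6 values of 3 libraries and 2 sets of barcodes, centred per gene, were sought among 10940 genes. Apc was nearest to Rbpms (distance 0.11; 29.1, 129 and 149 CPM in deep and 317, 299 and 316 CPM in shared barcodes) and Nsmaf (0.18), and had 33 genes within 0.5. Ctnnb1 was nearest to Snap47 (0.16) and Ltn1 (0.18), Btrc to Bace1 (0.13) and Sertad3 (0.16), and Amer1 to Lpp (0.15) and Srbd1 (0.19), with 384, 304 and 427 genes within 0.5. Csnk1a1 was nearest to Srsf11 (0.04) and Trim8 (0.06), Gsk3b to Pdcd6ip (0.06) and Gpank1 (0.08), Gsk3a to Brcc3 (0.09) and Phf7 (0.10), and Axin1 to Coq6 and Rpn1 (both 0.08), and each of these 4 had 1124 to 1301 genes within 0.5. The pattern of Apc, highest in shared barcodes and lowest in deep WT barcodes, was thus the least common of the 8 by this measure.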

How the data were processed

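Single-cell RNA-seq libraries of WT, LApc and LApcL organoids were analysed, 1 each. The authors deposited whole-number UMI counts per gene and barcode, with no normalisation; per the file headers they came from Cell Ranger 6.0.1, while the labels name Cell Ranger 2.1.1 and the build mm10 (GRCm38). From these counts, UMIs were summed per gene over barcodes and scaled to CPM. Barcodes over 20% mitochondrial UMIs were left out. Deep barcodes had at least 10000 UMIs in 1 library only. Doublets were not removed in the main values, since the automatic threshold of Scrublet (scanpy 1.11.5) marked 0, 1 and 2 barcodes and so did not work; removing the highest scores was an alternative.

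Levels have exact Poisson, ratios exact conditional binomial and shares Clopper-Pearson intervals at the 95% level. The enterocyte list was used without 1 marker of the list first set, which is not reported here for a reason unrelated to its values; a sum over fewer markers puts fewer barcodes above a fixed limit. Called means past 1.5-fold among genes with a mean of at least 5 CPM; a count of 0 was set to a floor of 3 counts. Shares used barcodes thinned without replacement to 10000 or 500 UMIs. Depth was 48895147 to 90864428 UMIs in deep and 5522089 to 8120127 in shared barcodes. Simulated counts were drawn by the same random sampling that the intervals assume, with no spread between cells or libraries. On them the intervals held the true ratio in 94.9% to 95.4% of genes and 200 of 200 genes changed 2-fold were called. This checks the calculation only and not whether the intervals cover the spread of the data. Named genes were the 8 genes, from the lists the 2 highest and 2 lowest per comparison and those whose role is told, and the 2 nearest genes of each of the 8. The genes and lists were chosen with earlier results of these data known. Python 3.11.15, numpy 2.4.6 and scipy 1.17.1 were used.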

Additional observations from a re-analysis of the deposited data

Results flagged for a closer look

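In 4 of the 8 genes the difference between deep and shared barcodes of a library had opposite signs in WT and in a mutant library, with intervals that left out 0 on both sides, as did 14.6% of the 9988 genes compared. On the median-of-ratios scale 3 of the 8 did (Amer1, Csnk1a1 and Ctnnb1), and 9.82% of all genes. On the log2 scale Ctnnb1 was at -0.70 in WT, 0.73 in LApc and 0.49 in LApcL, and Csnk1a1 was at -0.65, 0.29 and 0.19. Amer1 was at -0.89, 0.40 and 0.63. Gsk3b was at -0.32 in WT and 0.16 in LApcL. With 1 library of each genotype the difference between libraries was not tested. The medians of all genes in the same contrasts were -0.31 in WT, 0.22 in LApc and 0.22 in LApcL, and relative to them Gsk3b was at -0.01 in WT and -0.07 in LApcL, and Csnk1a1 at -0.03 in LApcL, 0.08 in LApc and -0.34 in WT.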

How the results depend on the processing

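No paired analysis was possible because each genotype had 1 library and the labels give no shared replicate numbers. Leaving out a replicate was not possible for the same reason. Of the 174 recomputed counts, 156 stayed within 1.5 times the value reported and 18 did not. A count of 0 that stayed 0 was taken as within that limit. On the median-of-ratios scale, LApcL against WT had 3 of the 8 genes higher in place of 5, deep against shared WT barcodes had 1 higher in place of 0 and 3 lower in place of 5, and that contrast had 0 higher in LApc in place of 1 and 0 in LApcL in place of 2. On that scale the other pathway genes had 5 lower in LApc against WT in place of 1, 5 lower in LApcL against WT in place of 2, and 1 higher in LApcL against LApc in place of 2. A minimum mean of 50 CPM, which left 4 of the 8 genes to compare, gave 3 higher in LApc against WT in place of 5 (38.9% of all genes) and 3 in LApcL against WT in place of 5 (41.3%), 3 lower in deep than in shared WT barcodes in place of 5 (42.0%), and 0 higher in LApcL in place of 2 (38.3%). At 2-fold there were 3 higher in LApcL against WT (28.1% of all genes), 2 lower in deep than in shared WT barcodes (32.7%), and 0 higher in LApc (24.9%) and 0 in LApcL (26.3%) in that contrast. Without the WT barcodes with 10 or more UMIs of the enterocyte markers, an alternative chosen after seeing the data, LApcL against WT had 3 higher and the other pathway genes 2 lower in LApc against WT. Of the other recomputed values, 451 held and 168 moved. These were ratios and shares of single genes, judged by their interval, and median ratios over the 8 genes, judged by a fixed difference on the log2 scale. The log2 ratio of Apc in LApc against WT ran from 1.64 to 2.23 over 12 alternatives, that of Ctnnb1 from 0.96 to 1.55 and that of Axin1 from -0.32 to 0.26. Depth limited Btrc, Amer1 and Axin1 in shared barcodes, where a library held 63 to 121 UMIs of each.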

Other observations

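Few deep barcodes showed the whole set at once. At 10000 UMIs per barcode the mean number of the 8 genes with a UMI was 3.04 in WT, 4.12 in LApc and 4.20 in LApcL, with medians of 3, 4 and 4, and all 8 were found in 0, 1 and 1 barcodes. No UMI of any of them was found in 8 WT, 0 LApc and 2 LApcL barcodes.

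A shared barcode tended to hold the same gene in different libraries. Over 3141 barcodes that passed the mitochondrial limit in WT and LApc, 47.7% of those with an Apc UMI in WT had one in LApc, against 13.9% of those without. The corresponding shares were 24.8% and 1.98% for Axin1, 30.2% and 1.05% for Amer1, 30.1% and 1.78% for Btrc and 51.4% and 22.8% for Ctnnb1. For the endothelial gene Pecam1 they were 77.4% and 40.6%. These barcodes were not thinned, and deeper barcodes hold more of every gene, so the shares are descriptions only.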
